A study of Mus musculus with 9 samples.

Results

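The genes described here are 10 members of the transforming growth factor beta (TGF-beta) and bone morphogenetic protein (BMP) pathway, chosen by name and matched by gene symbol: the ligand genes Tgfb1, Tgfb2 and Bmp4, the receptor genes Tgfbr1 and Eng, the inhibitory Smad genes Smad6 and Smad7, and the Id genes Id1, Id2 and Id3. All 10 were found among 51717 annotated genes, and 9 of them were expressed highly enough to be tested, all but Bmp4. They were followed through 9 RNA libraries of B16F10, a mouse melanoma cell line that makes melanin. The study compared 3 forms of that line, with 3 libraries each: a non-target control, a knockdown of Sirpa and an overexpression of Sirpa, the gene of an inhibitory surface receptor that binds CD47. The cells of every group were kept in DMEM with serum and antibiotics and had no other treatment named. Each condition is 1 line, and the labels do not say whether a line is a clone or a pool, or which vector it carries. The p-values therefore rest on the variation among biological repeats within each line, and say nothing of how separately derived lines would vary.

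In this pathway a secreted ligand joins a pair of receptor kinases at the cell surface, which phosphorylate receptor-regulated Smad proteins. These pair with Smad4 and enter the nucleus, where they raise or lower transcription of target genes. TGF-beta receptors act mainly through Smad2 and Smad3, and BMP receptors through Smad1, Smad5 and Smad9. Inhibitory Smads are themselves induced by the pathway and limit it. Id genes are well-known targets of BMP signalling. Their products have no DNA-binding region of their own and hold E proteins, a class of helix-loop-helix transcription factors, away from DNA. Normal melanocytes are growth-inhibited by TGF-beta, while melanoma cells often secrete it.

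The libraries held between 16404396 and 22379203 estimated counts. Sirpa followed the labels in every library, at 289.2 to 303.3 CPM in controls, 112.2 to 118.1 in the knockdown line and 894.9 to 913.6 in the overexpression line. CPM here is the count scaled to a common library size after TMM normalization, and it compares 1 gene between libraries. All 9 melanocyte markers on the list were expressed, with summed levels of 17670 to 17856 CPM in controls, 17110 to 17767 in the knockdown line and 19371 to 19849 in the overexpression line. Macrophage and myeloid markers summed to 1.78 to 3.25 CPM in controls, 3.69 to 4.8 with knockdown and 2.65 to 3.67 with overexpression. The knockdown libraries lay above all others in this sum, in which Ptprc, Adgre1, Fcgr1 and Tyrobp had 0 counts. Neither of the 2 tested markers was called against control, and their median log2 fold change with knockdown was 1.04. Between the knockdown and overexpression lines 1 of the 2 was called, lower with overexpression, beside 11.1% lower among all tested genes. T and NK cell markers summed to at most 0.123 CPM. Epithelial markers summed to 0.887 to 2.06 CPM in controls, 0.119 to 1.15 with knockdown and 0.824 to 0.917 with overexpression.

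Bases upstream of the Id genes and of Eng are shown because these genes moved in opposite directions in the knockdown line. Each run is the 250 bases before the start of the gene in RefSeq (build GRCm38.p6), read 5′ to 3′ on the gene's strand. Capitals mark the words CAGAC or its complement GTCTG (a short Smad-binding word), GGCGCC (a GC-rich Smad-binding word) and CANNTG (the E-box, the word bound by E proteins). Id2 lies at chr12:25096093-25096342, minus strand. Id3 lies at chr4:136143572-136143821, plus strand. Eng lies at chr2:32646345-32646594, plus strand.
Id2: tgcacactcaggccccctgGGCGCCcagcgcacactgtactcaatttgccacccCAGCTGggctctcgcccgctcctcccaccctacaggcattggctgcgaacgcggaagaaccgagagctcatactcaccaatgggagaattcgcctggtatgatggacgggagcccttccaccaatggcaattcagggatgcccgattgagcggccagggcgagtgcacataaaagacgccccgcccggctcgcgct
Id3: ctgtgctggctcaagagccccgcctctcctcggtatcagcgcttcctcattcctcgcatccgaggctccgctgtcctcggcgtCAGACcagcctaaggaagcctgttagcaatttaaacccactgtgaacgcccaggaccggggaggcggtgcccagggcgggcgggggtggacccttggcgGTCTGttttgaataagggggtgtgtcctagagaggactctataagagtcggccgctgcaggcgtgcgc
Eng: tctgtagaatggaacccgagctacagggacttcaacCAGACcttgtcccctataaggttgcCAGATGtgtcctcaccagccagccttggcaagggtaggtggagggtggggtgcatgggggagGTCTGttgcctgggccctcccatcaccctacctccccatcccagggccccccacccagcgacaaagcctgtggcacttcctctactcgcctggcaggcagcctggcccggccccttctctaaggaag

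The Id2 window held 1 GGCGCC and 1 CANNTG, the Id3 window held 2 CAGAC words, and the Eng window held 2 CAGAC words and 1 CANNTG. No 2 kinds of word overlapped in any of these windows. Over 32851 windows of the same length, 42.2% held CAGAC on either strand, 9.59% held GGCGCC and 66.2% held CANNTG. Id3 and Eng both held the CAGAC word and changed in opposite directions in the knockdown line, as the values below show. Whether the word bears on either change was not tested. Windows were searched for 8 of the 10 members, all but Id1 and Smad7. Any member window on chromosome 18, where Smad7 lies, was left out of the search. Among the others Tgfb2 held 2 CAGAC words and 1 CANNTG, and Bmp4 held 3 CANNTG. One window of Tgfbr1 held 1 GGCGCC and another held 1 CAGAC and 1 CANNTG. The windows of Tgfb1 and Smad6 held none of the 3 words. A match is a description of the letters and does not show binding.

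The level of a gene relative to other genes is given in TPM (a share of all transcripts in the library, scaled by length). In controls Id2 stood highest of the members at 293 ± 9.51 TPM (SD, n = 3). Eng at 123 ± 6.08 and Id3 at 112 ± 3.69 TPM followed and overlapped each other. Id1 was at 26.2 ± 3.22 TPM and Tgfbr1 at 19.7 ± 1.56 TPM. Tgfb2 (9.76 ± 0.604 TPM), Tgfb1 (8.04 ± 3.15 TPM) and Smad7 (6.12 ± 1.71 TPM) came next, each overlapping its neighbour in this order. Smad6 was lowest of the tested members at 2.52 ± 0.454 TPM. In the knockdown line Eng and Id3 no longer overlapped, at 173 ± 15 and 65.2 ± 4.52 TPM, while Tgfbr1 with Id1 and Smad7 with Smad6 did.

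**Figure D1:**
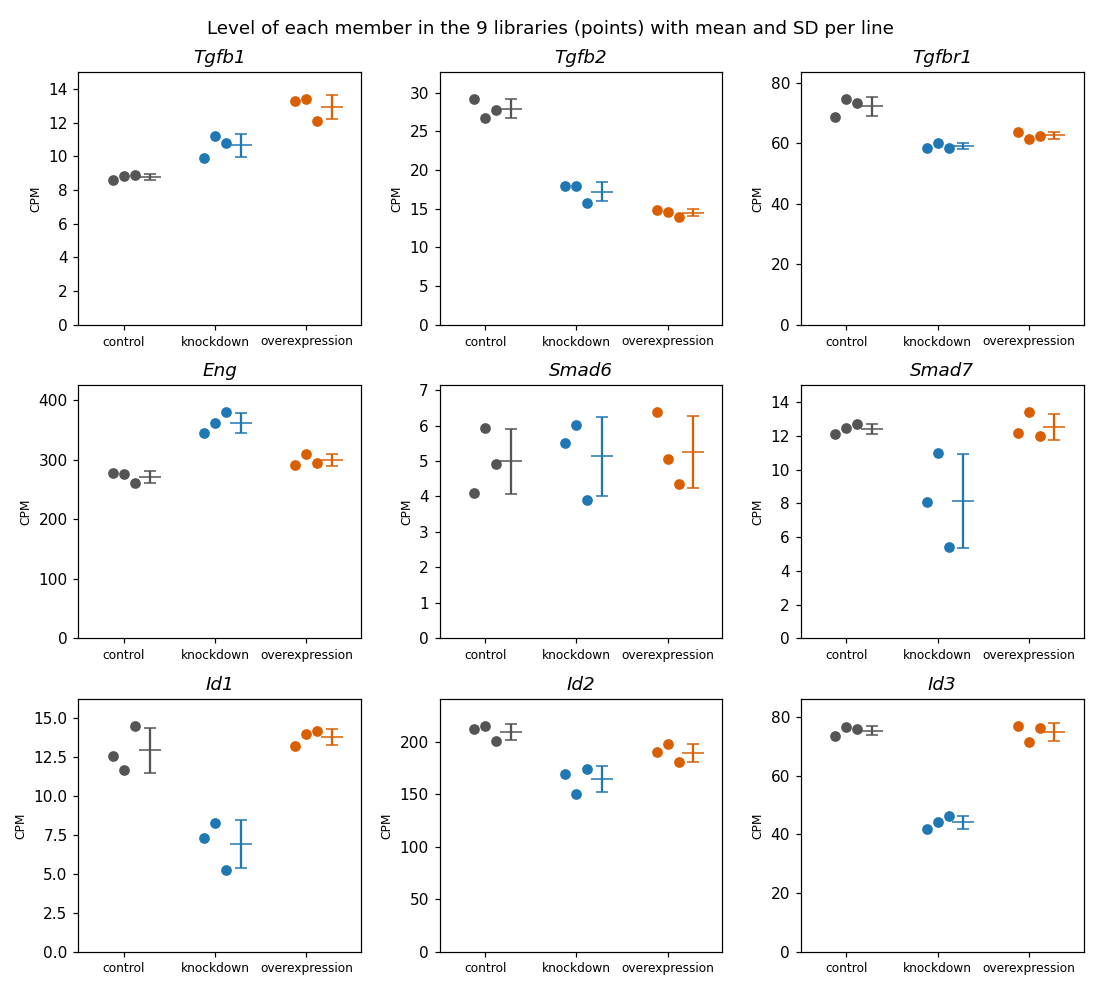
Level of the 9 tested members in CPM (vertical axis, from 0) in each library of the 3 lines; points are libraries, and the bar beside them is the mean with its SD (n = 3). The knockdown points of Id1, Id2 and Id3 all lie below the control points, those of Eng lie above them, and the Id1, Id3 and Smad7 points of the overexpression line lie within or close to the control range.

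In the knockdown line the 3 Id genes, Smad7, Tgfb2 and Tgfbr1 fell and Eng rose. That is 7 of the 9 tested members called, 1 higher and 6 lower, where 35.4% of all 13064 tested genes were called in this comparison. In the overexpression line 4 of the 9 were called, Tgfb1 and Eng higher and Tgfb2 and Tgfbr1 lower, where 24.3% of all tested genes were called. The members and the pathway lists were chosen with earlier results of these data known, so such shares are set side by side only as a description. Between the perturbed lines 5 differed, the 3 Id genes and Smad7 higher with overexpression and Eng lower, beside 22.1% of all tested genes. Calls rest on the quasi-likelihood test of edgeR, with p-values adjusted over the whole table by the Benjamini-Hochberg method and a threshold of 0.05, and every adjusted p below comes from it unless another tool is named. The CPM ranges of the 3 and 3 libraries did not overlap for 8 members with knockdown (45.8% of all tested genes), for 5 with overexpression (40.4%) and for 8 between the perturbed lines (35.9%). The median log2 fold change of the 9 tested members was −0.35 with knockdown and 0.01 with overexpression, beside −0.01 and 0.00 over all tested genes. The comparisons with control share the 3 control libraries, so the contrast between the perturbed lines is the test of whether their changes differ.

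Among the ligands, Tgfb2, which encodes the TGF-beta 2 growth factor, was at 29.2, 26.8 and 27.8 CPM in the control libraries. Knockdown libraries held 17.9, 17.9 and 15.8 CPM, and overexpression libraries 14.9, 14.6 and 14 CPM. Every library of both perturbed lines lay below every control. The fall was 1.62-fold with knockdown (log2 fold change −0.70 ± 0.10, SE; adjusted p = 3.33e-05) and 1.93-fold with overexpression (−0.95 ± 0.10; adjusted p = 3.26e-06). The perturbed lines did not differ in Tgfb2 by the test (−0.25 ± 0.10; adjusted p = 0.0855), although their libraries did not overlap.

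Tgfb1 encodes the most widely expressed TGF-beta and moved the other way. It was at 8.58, 8.85 and 8.87 CPM in controls, at 9.92, 11.2 and 10.8 CPM in the knockdown line and at 13.3, 13.4 and 12.1 CPM in the overexpression line. The 3 lines did not overlap, with controls lowest and overexpression highest. The rise with overexpression was 1.48-fold (0.56 ± 0.13, adjusted p = 0.00498), and the value with knockdown, 0.28 ± 0.13, was not called (adjusted p = 0.113) and turned to −0.06 with the transcript-length offset described with the transcripts (adjusted p = 0.89). Bmp4, the gene of a ligand of BMP receptors, had 0 estimated counts in all 9 libraries. A count of 0 allows up to 0.135 to 0.184 CPM per library (a floor of 3 counts, for counting error only).

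Among the receptors, Eng encodes endoglin, a co-receptor that binds ligand together with the TGF-beta and BMP receptor kinases and is best known from endothelial cells. It was at 278, 275 and 260 CPM in controls, 344, 361 and 379 CPM in the knockdown line and 291, 310 and 295 CPM in the overexpression line. The knockdown libraries lay above all others, and the overexpression libraries lay between them and the controls. Eng rose 1.33-fold with knockdown (0.42 ± 0.05, adjusted p = 2.6e-06) and was 0.27 ± 0.04 lower on the log2 scale with overexpression than with knockdown (adjusted p = 0.000339). The smaller rise with overexpression, 0.14 ± 0.05 (adjusted p = 0.031), was no longer called without control replicate 2 (0.15, adjusted p = 0.0549) or 3 (0.11, adjusted p = 0.155). It was also not called without overexpression replicate 2 (0.12, adjusted p = 0.125) or 3 (0.15, adjusted p = 0.0638).

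The endothelial markers beside Eng were low. Of 12 other endothelial markers 4, the genes Cdh5, Kdr, Tie1 and Cldn5, had 0 counts in every library, and 2 were expressed highly enough to be tested. The 12 together summed to 6.24 to 7.35 CPM in controls, 7.17 to 9.58 in the knockdown line and 5.18 to 6.82 in the overexpression line, far below Eng alone. One of them, Egfl7, a secreted protein gene named after its values were seen, rose with knockdown from 2.33 to 5.66 CPM (1.27 ± 0.32, adjusted p = 0.0052).

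Tgfbr1 encodes the receptor kinase that phosphorylates Smad2 and Smad3. It was at 68.8, 74.7 and 73.4 CPM in controls, at 58.4, 60.3 and 58.6 CPM in the knockdown line and at 63.8, 61.6 and 62.6 CPM in the overexpression line. All libraries of both perturbed lines lay below the controls. It fell by 0.29 ± 0.06 on the log2 scale with knockdown (adjusted p = 0.00143) and by 0.21 ± 0.06 with overexpression (adjusted p = 0.0211). The latter was no longer called without control replicate 2 (−0.18, adjusted p = 0.0886) or 3 (−0.20, adjusted p = 0.066), or without overexpression replicate 2 (−0.19, adjusted p = 0.0717) or 3 (−0.21, adjusted p = 0.0539).

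The inhibitory Smads differed from each other. Smad7, whose product blocks receptors of both branches, was at 12.1, 12.5 and 12.7 CPM in controls and 12.2, 13.4 and 12 CPM in the overexpression line. The knockdown libraries were lower and spread widely, at 8.07, 11 and 5.41 CPM. The fall with knockdown was 1.52-fold (−0.61 ± 0.19, adjusted p = 0.0207). It was no longer called without knockdown replicate 3 (−0.39, adjusted p = 0.0735) or 1 (−0.60, adjusted p = 0.0539), or without control replicate 2 (−0.60, adjusted p = 0.0506) or 3 (−0.59, adjusted p = 0.0583). The overexpression line was 0.62 ± 0.19 higher than the knockdown line on the log2 scale (adjusted p = 0.0282), a call also lost without knockdown replicate 1 (adjusted p = 0.0746) or 3 (0.39, adjusted p = 0.0952) or without any 1 of the 3 overexpression libraries (adjusted p = 0.0608, 0.0889 and 0.0561).

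Smad6, which mainly restrains the BMP branch, was at 4.11, 5.94 and 4.93 CPM in controls, 5.5, 6.01 and 3.89 CPM with knockdown and 6.37, 5.06 and 4.36 CPM with overexpression. The libraries of the 3 lines overlapped. The differences from control were 0.04 ± 0.24 (adjusted p = 0.914) and 0.08 ± 0.24 (adjusted p = 0.855), with 95% intervals of −0.55 to 0.63 and −0.51 to 0.67 on the log2 scale. Changes of the size seen in Id2 or Tgfbr1 lie within these intervals, and Smad6 had 64 to 135 estimated counts per library.

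The Id genes fell together with knockdown, and Id1 and Id3 were near the control level with overexpression. Id1 was at 12.6, 11.7 and 14.5 CPM in controls, 7.3, 8.27 and 5.23 CPM with knockdown and 13.2, 14 and 14.2 CPM with overexpression. Id3 was at 73.6, 76.4 and 75.8 CPM in controls, 41.8, 44.3 and 46.1 CPM with knockdown and 76.9, 71.4 and 76.2 CPM with overexpression. In both genes the knockdown libraries lay below all 6 others, and the overexpression and control libraries overlapped. Id1 fell 1.86-fold (−0.90 ± 0.16, adjusted p = 0.000444) and Id3 fell 1.71-fold (−0.77 ± 0.06, adjusted p = 1.49e-07), and both stood higher with overexpression than with knockdown (0.99 ± 0.16, adjusted p = 0.000369, and 0.77 ± 0.06, adjusted p = 3.58e-07). Knockdown replicate 3 was the lowest of the 9 libraries in Id1, Smad6 and Smad7, but not in Id2 or Id3.

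Against control the overexpression line differed by 0.09 ± 0.16 in Id1 (adjusted p = 0.736) and by −0.01 ± 0.06 in Id3 (adjusted p = 0.944). The 95% intervals were −0.29 to 0.48 for Id1 and −0.16 to 0.15 for Id3, so the Id1 libraries leave room for a larger change than those of Id3. Id2, the most abundant member, was at 212, 215 and 201 CPM in controls, 169, 150 and 174 CPM with knockdown and 190, 198 and 181 CPM with overexpression. The 3 lines did not overlap in Id2, and the overexpression libraries lay between the others. The fall with knockdown was 1.27-fold (−0.35 ± 0.06, adjusted p = 0.000117), and the 2 perturbed lines differed by 0.21 ± 0.06 (adjusted p = 0.0125). That difference was not called without overexpression replicate 2 (0.17, adjusted p = 0.0704). The value with overexpression against control was −0.14 ± 0.05 and was not called (adjusted p = 0.0695), but it was called by DESeq2 (adjusted p = 0.0493), without a filter on low counts (adjusted p = 0.033), with only these lines fitted (adjusted p = 0.019) and without knockdown replicate 2 (adjusted p = 0.0271) or 3 (adjusted p = 0.0482). The fourth Id gene, Id4, had 0 counts in 7 libraries and 2 in each of the other two.

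**Figure D2:**
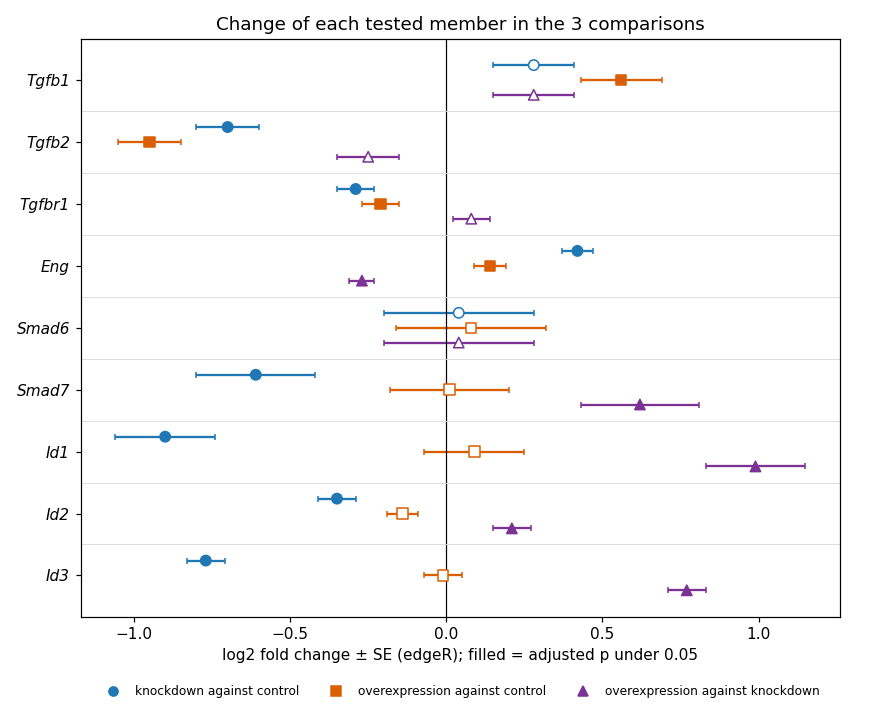
Log2 fold change (horizontal axis) with its SE for each tested member in the 3 comparisons; filled symbols have an adjusted p under 0.05. Id1, Id3 and Smad7 lie at −0.90, −0.77 and −0.61 with knockdown and near 0 with overexpression, while Tgfb2 lies below 0 in both lines.

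The transcripts annotated for each member show where its summed TPM is uncertain. Salmon, the authors' quantifier, divides fragments among the transcripts of a gene, and a short transcript turns few fragments into a high TPM. In control replicate 3 the 241-base transcript Tgfb1-205 was assigned 3 fragments and took 46.5% of the TPM of Tgfb1. It was at 0 in the other 8 libraries, and the gene stood at 11.7 TPM in that library against 6.12 and 6.33 TPM in the other controls. The main coding transcript Tgfb1-201 was alike in the controls, at 6.01, 6.29 and 6.22 TPM. It was at 7.35, 8.48 and 8.3 TPM with knockdown and at 9.59, 9.83 and 9.07 TPM with overexpression, without overlap between the 3 lines.

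Short transcripts also held part of Smad7 and Tgfb2 in some libraries. Smad7-204, of 769 bases, took 46.8% of Smad7 TPM in control replicate 2, 62.8% in overexpression replicate 1 and 31.1% in overexpression replicate 2, and was at 0 in the other 6 libraries. The retained-intron transcript Tgfb2-205 took 55.0% of Tgfb2 TPM in overexpression replicate 1 and was at 0 elsewhere. Eng was steadier in its line means, with the main coding transcript Eng-201 at 72.5%, 71.7% and 72.0% of its TPM in the control, knockdown and overexpression lines. The second coding transcript, Eng-205, held 16.4%, 15.9% and 15.5%. Members shared at most 1.79% of their 31-base words with other genes (Tgfb1), and Eng, Smad6, Smad7, Id1 and Id3 shared none.

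These assignments bear on the calls. With the average transcript length of each library as an offset, the value of Tgfb1 with overexpression was 0.21 (adjusted p = 0.629) in place of 0.56, and Tgfb2 with knockdown was −0.60 (adjusted p = 0.0586). With the same offset Eng (0.14, adjusted p = 0.169) and Tgfbr1 (−0.22, adjusted p = 0.116) were not called with overexpression, nor was Id2 between the perturbed lines (0.21, adjusted p = 0.0705). A test on log2(TPM + 0.5) called 4 members with knockdown, 0 with overexpression and 3 between the perturbed lines. Eng, Id1, Id2 and Id3 were called with knockdown on either scale, and Eng, Id1 and Id3 between the perturbed lines.

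**Figure D3:**
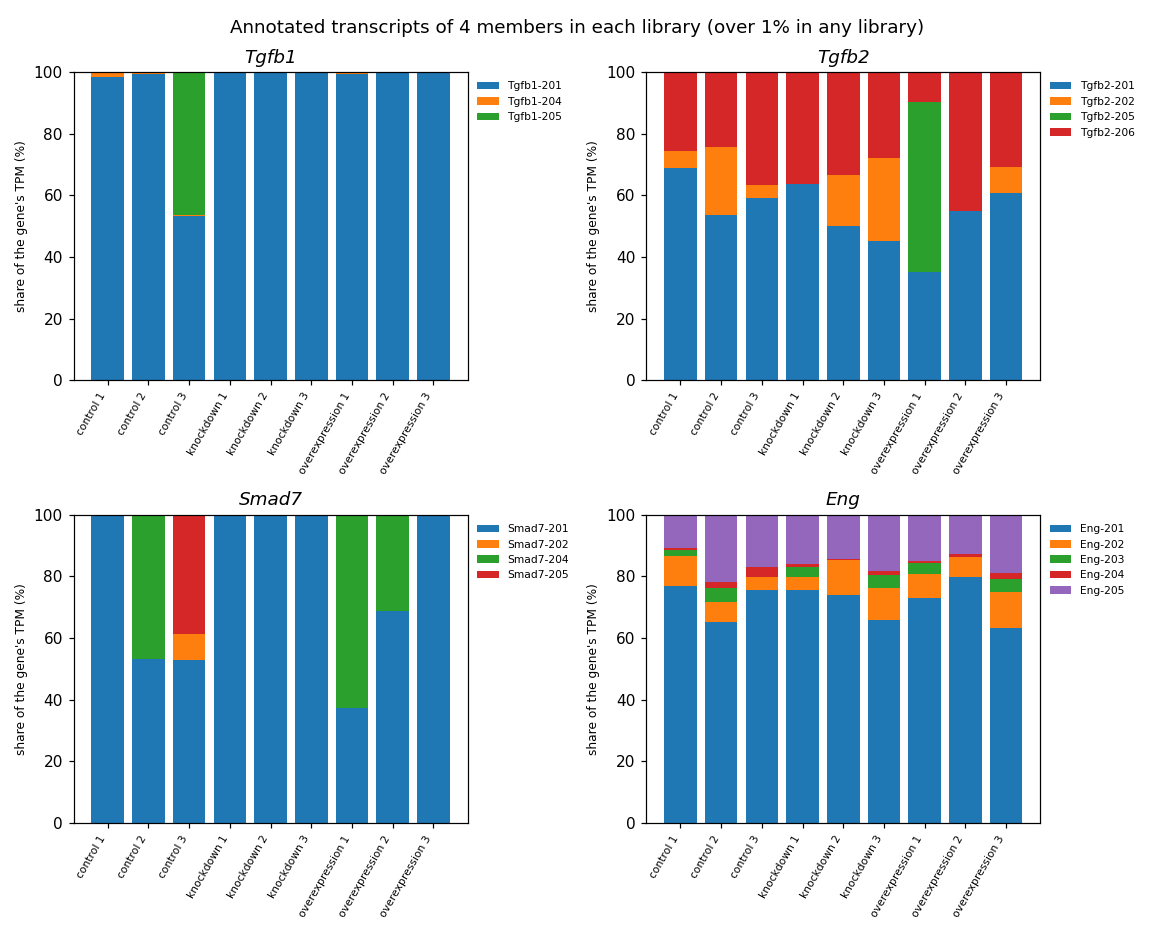
Share of the TPM of Tgfb1, Tgfb2, Smad7 and Eng (vertical axis, percent) that each annotated transcript held in each library. Eng-201 holds the largest share of Eng in each of the 9 libraries, while Tgfb1-205 appears in control replicate 3 at 46.5% and Tgfb2-205 in overexpression replicate 1 at 55.0%.

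The other genes of the pathway were taken from lists of 120 genes in all, of which 73 were expressed highly enough to be tested. With knockdown 36 of them (49.3%) were called, 14 higher and 22 lower, and with overexpression 30 (41.1%), 16 higher and 14 lower. The shares among all tested genes were 35.4% and 24.3%. A few genes stand in more than 1 list. Of the other ligand genes 7 of 28 were tested and 15 had 0 counts throughout, among them Bmp2, Bmp6 and Bmp7. Gdf11, the gene of an activin-like ligand, was the only one called, and it rose in both lines (0.53 ± 0.08, adjusted p = 7.96e-05, with knockdown and 0.33 ± 0.08, adjusted p = 0.00704, with overexpression).

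Of 13 other tested receptor and co-receptor genes 4 rose and 0 fell with knockdown and 9 were not called, beside 18.0% higher and 17.4% lower among all tested genes, and the median of the list was 0.16. Bmpr2, a receptor kinase of the BMP branch, was at 131, 119 and 127 CPM in controls, 220, 216 and 225 CPM with knockdown and 139, 142 and 135 CPM with overexpression. It rose by 0.81 ± 0.05 with knockdown (adjusted p = 2.03e-09), and the overexpression line was 0.67 ± 0.05 below the knockdown line (−0.67, adjusted p = 3.39e-08). Tgfbr2, a receptor kinase that binds TGF-beta, rose from 39.3 to 62.3 CPM with knockdown (0.67 ± 0.07, adjusted p = 8.79e-07). Acvrl1, a partner of endoglin, rose from 34 to 44.7 CPM (0.39 ± 0.08, adjusted p = 0.000908). The fourth, Tgfbr3 (betaglycan, a co-receptor related to endoglin), was named after its values were seen, at 0.56 ± 0.13 (adjusted p = 0.0029). Tgfbr1 thus fell in the line in which these receptor genes and Eng rose.

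With overexpression 3 genes of the receptor and co-receptor list rose and 2 fell, beside 13.1% higher and 11.1% lower among all tested genes. Tgfbr2 rose by 0.31 ± 0.07 (adjusted p = 0.00251), while Rgma, a BMP co-receptor gene, fell by 0.39 ± 0.09 (adjusted p = 0.00387) and Bmpr1a, a BMP receptor kinase gene, by 0.25 ± 0.06 (adjusted p = 0.00773). Tgfbr2 (adjusted p = 0.055 and 0.0571) and Bmpr1a (adjusted p = 0.083 and 0.178) were not called with the transcript-length offset or in the limma test on TPM, nor was Rgma in the latter (adjusted p = 0.0898). The other two that rose, Bmpr2 (0.14 ± 0.05, adjusted p = 0.0352) and Bambi (0.50 ± 0.15, adjusted p = 0.0234), were both lost without control replicate 2 (adjusted p = 0.16 and 0.052) or 3 (0.0792 and 0.118) and without overexpression replicate 1 (0.102 and 0.0796) or 2 (0.116 and 0.107). Bmpr2 was lost without overexpression replicate 3 as well (adjusted p = 0.0516). Bmpr2 and Bambi were also lost with the transcript-length offset (adjusted p = 0.134 and 0.0905) and in the limma test on TPM (0.213 and 0.125). Bambi stands in the list of BMP response genes as well. Between the perturbed lines 6 of the 13 were lower with overexpression and 0 higher, beside 11.1% lower among all tested genes. Of 6 signalling Smad genes 1, Smad1, was called lower with knockdown (−0.26 ± 0.09, adjusted p = 0.031), beside 17.4% lower among all tested genes. With overexpression 0 were called, beside 24.3% of all tested genes. The Smad1 call was lost without control replicate 1 (−0.20, adjusted p = 0.143) or without knockdown replicate 1 (−0.21, adjusted p = 0.126) or 2 (−0.26, adjusted p = 0.0609). It was also lost with the transcript-length offset (adjusted p = 0.0909), in the limma test on TPM (0.235) and without a filter on low counts (0.066). Smad2, Smad3, Smad4, Smad5 and Smad9 were not called in any comparison.

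Genes for storage and activation of TGF-beta moved in both directions. With knockdown 6 of 12 tested fell and 3 rose, and with overexpression 3 fell and 4 rose. The shares of all tested genes were 17.4% lower and 18.0% higher with knockdown and 11.1% lower and 13.1% higher with overexpression. Of the knockdown calls, Bmp1 (adjusted p = 0.123), Ltbp3 (0.268) and Lrrc32 (0.0655) were lost with the transcript-length offset, and Itgb8 (0.0756) in the limma test on TPM. Of the overexpression calls, Itgav (adjusted p = 0.217), Bmp1 (0.234), Mmp14 (0.0754) and Furin (0.096) were lost with the offset. Tll1 (0.0642) was lost in the limma test. Some of these calls were lost under further settings. Counting every alternative, Lrrc32 with knockdown lost its call in 9 of 17. With overexpression Tll1 lost its call in 6 of 19 and Itgav in 7 of 19. Ltbp4, which binds latent TGF-beta to the matrix, fell in both lines, from 41.4 CPM to 15.7 with knockdown (−1.40 ± 0.11, adjusted p = 9.62e-08) and 15.5 with overexpression (−1.42 ± 0.11, adjusted p = 1.75e-07). Itgav, the integrin chain that binds latent TGF-beta, fell with knockdown (−0.53 ± 0.05, adjusted p = 1.62e-06) and was 0.70 ± 0.05 higher with overexpression than with knockdown (adjusted p = 1.44e-07). Ltbp1, a close relative of Ltbp4, was at 8.32 CPM in controls, 3.55 with knockdown and 10.6 with overexpression. It was named after its values were seen, and the perturbed lines differed by 1.56 ± 0.22 (adjusted p = 8.43e-05). Thbs1, which encodes the activator thrombospondin-1, rose from 12.4 to 33.3 CPM with overexpression (1.42 ± 0.10, adjusted p = 5.55e-08).

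Of genes known to respond to TGF-beta, 7 of 11 tested fell with knockdown and 0 rose, where 17.4% of all tested genes were lower. The calls of Bhlhe40 (adjusted p = 0.0664) and Tsc22d1 (0.0887) were lost with the transcript-length offset, and also in the limma test on TPM (0.213 and 0.302). The median of the list was −0.26 with knockdown and −0.11 with overexpression. Col1a1, a collagen gene, was at 52.9, 57.7 and 56.2 CPM in controls, 4.33, 4.82 and 5.71 CPM with knockdown and 63.2, 70.2 and 66.0 CPM with overexpression. Its fall with knockdown was −3.50 ± 0.10 (adjusted p = 4.57e-13). Junb, an AP-1 subunit gene, fell by 0.73 ± 0.10 with knockdown (adjusted p = 3.44e-05).

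A pair of further response genes was named after their values were seen. Pmepa1, which encodes an inhibitor that TGF-beta induces, was at 7.11, 4.73 and 6.21 CPM in controls, 0.676, 1.9 and 1.28 CPM with knockdown and 4.72, 3.82 and 5.67 CPM with overexpression. Ccn2, the connective tissue growth factor gene, was at 11.8 CPM in controls, 6.54 with knockdown and 10.9 with overexpression. Both fell with knockdown (−2.24 ± 0.34, adjusted p = 8.25e-05, and −0.85 ± 0.17, adjusted p = 0.00108). With overexpression 2 response genes rose and 2 fell, beside 13.1% higher and 11.1% lower among all tested genes. The rise of Col1a1 (adjusted p = 0.132) and the falls of Tsc22d1 (0.191) and Junb (0.0711) were not called with the transcript-length offset. Bhlhe40, a repressor gene, rose (0.33 ± 0.07, adjusted p = 0.00143), and Junb, at −0.36 ± 0.10 (adjusted p = 0.0143), was not called without control replicate 3 (−0.26, adjusted p = 0.0985) or overexpression replicate 2 (−0.32, adjusted p = 0.0623). Between the perturbed lines 6 of the 11 were higher with overexpression and 0 lower, beside 11.0% higher among all tested genes.

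Col1a1 is also a fibroblast marker. The 12 fibroblast markers summed to 87.7 to 97.1 CPM in controls, 60.7 to 69.8 with knockdown and 103 to 114 with overexpression. Without Col1a1 the other 11 summed to 34.4 to 40.9, 55.9 to 65.5 and 39.9 to 44.1 CPM. They were thus highest in the line in which Col1a1 and the response genes fell, and their part in these results was not tested. Thy1 and Mfap5 had 0 counts throughout. Without Col1a1 the other 13 response genes summed to 341 to 358 CPM in controls, 289 to 298 with knockdown and 345 to 351 with overexpression.

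**Figure D4:**
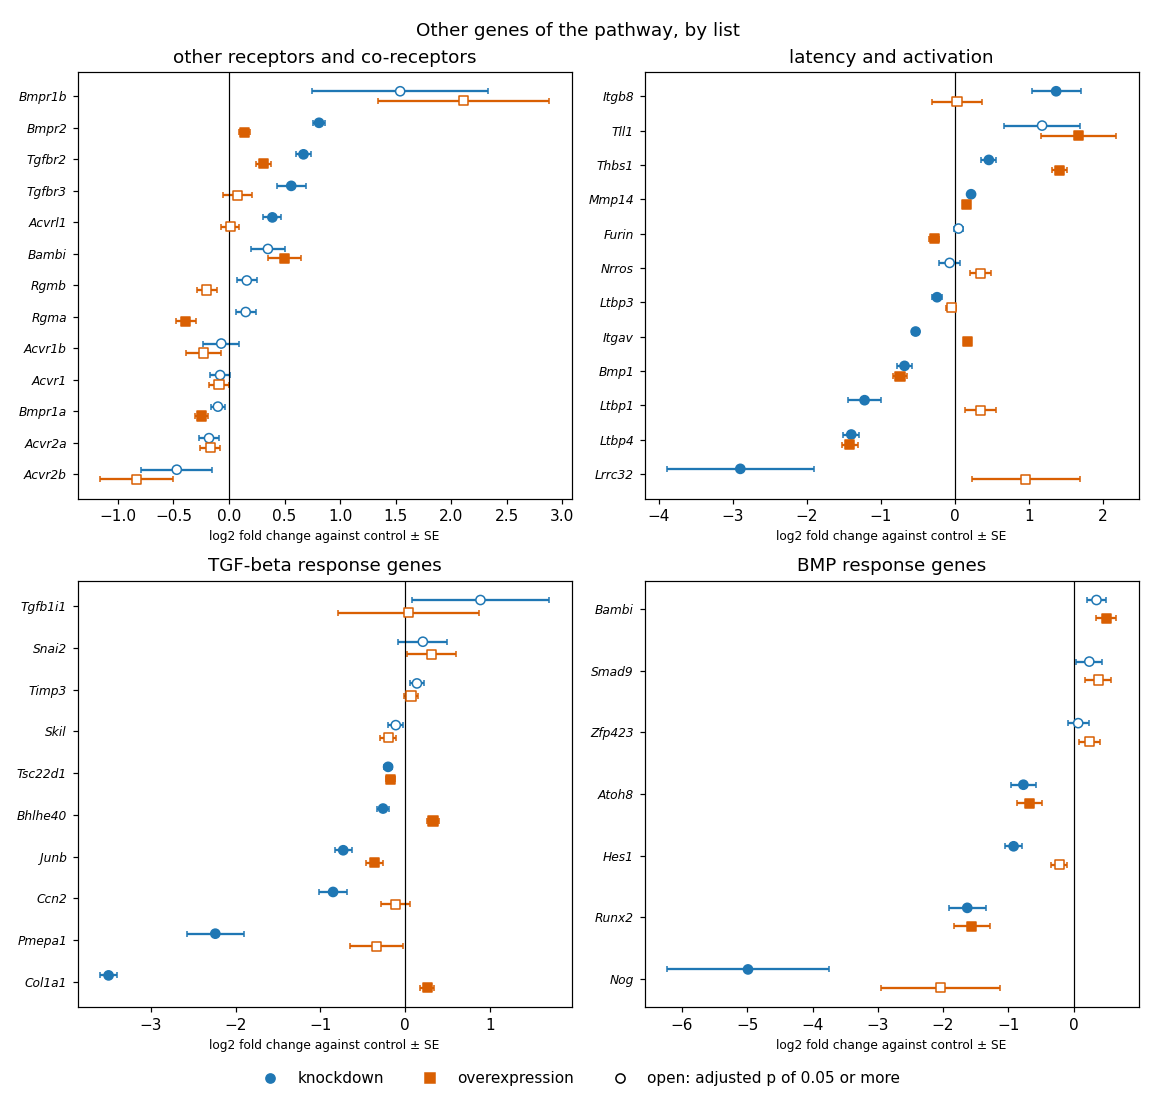
Log2 fold change against control (horizontal axis, with SE) of tested genes in 4 lists, 1 response gene aside, with knockdown as circles and overexpression as squares; filled symbols have an adjusted p under 0.05. The filled circles of the receptor list all lie above 0 and those of both response lists all lie below 0. Nog and Lrrc32 had few counts with knockdown, and the fitted sizes of their changes are imprecise.

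Of 7 tested BMP response genes 4 fell with knockdown and 0 rose, with a median of −0.77, and 2 fell and 1 rose with overexpression. Among all tested genes 17.4% were lower and 18.0% higher with knockdown, and 11.1% and 13.1% with overexpression. Hes1, a helix-loop-helix repressor gene also driven by Notch, was at 29.8, 28.2 and 22.6 CPM in controls, 11.9, 15.6 and 15.1 CPM with knockdown and 24.1, 21.2 and 23.7 CPM with overexpression. It fell by 0.92 ± 0.13 with knockdown (adjusted p = 3.43e-05) and was 0.70 ± 0.13 higher with overexpression than with knockdown (adjusted p = 0.000851). Runx2, a transcription factor gene of bone, fell in both lines from 5.69 CPM, to 1.83 with knockdown and 1.92 with overexpression (adjusted p = 0.000294 and 0.000722), though with the transcript-length offset neither was called (adjusted p = 0.0616 and 0.434). Atoh8 fell in both as well, by 0.77 ± 0.19 (adjusted p = 0.0043) and 0.68 ± 0.19 (adjusted p = 0.0138), the latter not called without overexpression replicate 2 (−0.61, adjusted p = 0.0523). The knockdown value of Atoh8 was not called with the offset (−0.55, adjusted p = 0.0691) or in the limma test on TPM (−0.43, adjusted p = 0.0748). The fourth gene lower with knockdown, Nog, which encodes the BMP antagonist noggin, had 13, 13 and 16 counts in controls and 0, 1 and 0 with knockdown (adjusted p = 0.00492). In the overexpression libraries Nog had 0, 7 and 3 counts.

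Secreted antagonist genes and genes linked to the control of Smad proteins were mixed. Of 5 tested secreted antagonist genes 2 fell with knockdown, Nog and Fstl1. Fstl1, a follistatin-related gene, fell from 75.9 CPM to 38.8 with knockdown (−0.97 ± 0.08, adjusted p = 1.39e-07) and to 44.8 with overexpression (−0.76 ± 0.08, adjusted p = 3.9e-06). Of 13 genes in the list of Smad corepressors and ubiquitin ligases 5 rose and 2 fell in each line. That list also holds genes of other kinds, such as Ppm1a, Usp15 and Sbno1, and not all of its genes limit the pathway. Among all tested genes 18.0% were higher and 17.4% lower with knockdown, and 13.1% and 11.1% with overexpression. The knockdown calls of Tgif2 (adjusted p = 0.0847), Ppm1a (0.27) and Sbno1 (0.118) were lost with the transcript-length offset. So were the overexpression calls of Smurf1 (0.162), Usp15 (0.0786) and Trim33 (0.125), and Zeb2 (0.0663) was lost in the limma test on TPM. Nedd4l, a ubiquitin ligase gene, fell by 0.68 ± 0.05 (adjusted p = 5.24e-08) and 0.61 ± 0.05 (adjusted p = 4.01e-07). Ski, a Smad corepressor gene, rose by 0.45 ± 0.04 with knockdown (adjusted p = 6.41e-07) and by 0.22 ± 0.04 with overexpression (adjusted p = 0.00135).

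The E protein genes, whose products Id proteins bind, did not move as 1 group. Tcf12 rose in both lines (0.35 ± 0.04, adjusted p = 8.17e-06, and 0.50 ± 0.04, adjusted p = 3.81e-07). Tcf3 fell in both (−0.38 ± 0.07, adjusted p = 0.000338, and −0.34 ± 0.07, adjusted p = 0.00123). Tcf4 was at −0.10 ± 0.06 with knockdown (adjusted p = 0.233) and fell with overexpression (−0.53 ± 0.06, adjusted p = 9.72e-06).

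For the 3 members called in both comparisons with control, the genes most like them over the 9 libraries were found by Pearson correlation of log2 CPM. The libraries form 3 lines, so such a correlation largely follows the line means. Nearest to Tgfb2 were Sema4c (r = 0.992), Rps15a (0.991) and Rpl17 (0.985). Nearest to Tgfbr1 were Rhob (0.979), Bad (0.977) and Gpc1 (0.977). Nearest to Eng were Rab3il1 (0.988), Tbl1xr1 (0.982) and Zmynd8 (0.981), and Tbl1xr1 moved most of these, from 29.4 CPM in controls to 71.8 with knockdown and 44.9 with overexpression.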

How the data were processed

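RNA of 9 libraries was sequenced as non-directional paired-end libraries, per the labels' protocols, so reads of overlapping antisense genes cannot be told apart. The authors deposited 1 table per library with, per the file headers, an estimated count (fragments assigned to a transcript, not whole) and a TPM value for each transcript. The software named is Salmon 1.4.0, DESeq2 1.34.0 and MultiQC 1.11, with mm39 as the build (per the submitters' processing notes); the annotation release is not given in the sources used here.

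Of 140789 transcripts 137161 (97.42%) were matched to genes by GENCODE M21 identifiers, used for names only. Unmatched transcripts held 0.554% to 0.654% of counts and were left out. The deposited estimated counts and TPM were summed per gene, and the counts rounded. edgeR 4.0.16 (R 4.3.3; filterByExpr, TMM, quasi-likelihood test, 1 mean per line, every library in the fit) tested 13064 genes. SEs were derived from the fold change and the F statistic, and 95% intervals from the SE with 6 degrees of freedom. Alternatives used limma 3.58.1, DESeq2 1.42.0 and edgeR settings. The edgeR, DESeq2 and limma-voom fits were tried on simulated gene counts, for the comparisons with control only. That trial did not cover the summing of transcripts, the transcript-length offset, the TPM test or the contrast between the perturbed lines. No library was a copy of another: libraries of the same line differed with a chi-square of 4.79 to 10.64 for each degree of freedom.

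All members were named. From each other list at most 3 called genes per comparison with control were named, lowest adjusted p first, except where stated or where a lost call is given. For members called in both comparisons with control, 3 genes by likeness were named. The members and lists were chosen with earlier results of these data known. The marker lists for other cells were endothelial, fibroblast, macrophage and myeloid, T and NK cell and epithelial, beside melanocyte markers. Protein identities, although planned, are not reported because protein sequences were not used here. The values of 1 gene of the TGF-beta response list are not reported here, although its calls are in the counts.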

Additional observations from a re-analysis of the deposited data

How the results depend on the processing

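Against 4619 genes called with knockdown, 3172 with overexpression and 2887 between the perturbed lines, an offset for average transcript length gave 2794, 1576 and 1423 genes, and limma on log2(TPM + 0.5) gave 2731, 1464 and 1166. Of the members, 7, 4 and 5 were called, and the offset called 6, 1 and 4 of them and the TPM test 4, 0 and 3. Leaving out 1 library at a time gave 3885 to 4555, 2440 to 3297 and 2241 to 2867 genes, and 6 to 7, 2 to 5 and 3 to 5 members. No pairing of the libraries by replicate number was seen: same-numbered libraries correlated at −0.09 to 0.13 in their deviations from the line means. Such values cannot show whether the libraries were prepared in pairs. A fit with the replicate number as a block gave 4423, 2957 and 2712 genes and the counts of members 7, 4 and 5. Over 27 member results, each under 19 alternatives, 476 of 513 values kept their side of the threshold, 32 lost the call and 5 gained it. In 17 of the 27 results the side held under every alternative, among them the knockdown calls of Eng, Id1, Id2 and Id3. Signs turned in 13 values of 6 results, none of which was called: Tgfb1 with knockdown, Smad6 in all 3 comparisons, and Smad7 and Id3 with overexpression. For other pathway genes 2331 of 2499 values kept their side, 158 lost the call and 10 gained it, and signs turned in 28 values of 13 results that were not called. The causes of these changes were not tested. The data leave a wide 95% interval for Smad6 with knockdown, −0.55 to 0.63, and allow no statement on Bmp4 below its floor.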
